A study of Mus musculus with 10 samples.

Results

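The 51 genes described here, of 38087 in the deposited tables, code for the most part for core proteins of the spliceosome. They were chosen by symbol, as the Sm proteins (Snrp), the numbered snRNP proteins (Snrnp), the Sf3a and Sf3b subunits, the Prpf factors, the Lsm proteins, U2af1 and U2af2, with a mean of at least 100 exon reads over all exon columns. The symbol rule matched 52 genes, and 1 of them, Snrpn, lay just outside the limit with a mean of 91.3 reads. The members nearest above it were Snrnp35 with 423.9 reads and Lsm5 with 516.7. By role the members comprised 7 Sm ring proteins, 3 proteins of the U1 snRNP, 12 of the U2 snRNP and U2AF, 9 of the U4/U6.U5 tri-snRNP, 7 other Prpf factors, 10 Lsm proteins and 3 proteins of the minor U11/U12 snRNP. Among the Lsm proteins, Lsm1, Lsm10, Lsm11 and Lsm12 fit the symbol rule but do not belong to the spliceosomal Lsm ring.

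The spliceosome removes introns from precursor RNA and is built anew on each intron from small nuclear ribonucleoproteins (snRNPs), particles of a short RNA and its proteins. A ring of Sm proteins is loaded onto most of these RNAs, and a ring of Lsm proteins onto U6. U1 recognises the 5′ splice site and U2 the branch point, after which the tri-snRNP joins and is rearranged into the catalytic form. A minor spliceosome with its own U11 and U12 particles removes a rare class of introns.

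The cells were NIH3T3, an established line of mouse fibroblasts, wild type in genotype, and their total RNA was sequenced without its ribosomal part. After 4 h at 37 °C from seeding they spent 16 h at 38 °C or at 33 °C and were then moved to the other temperature (38 to 33 °C, the downshift; 33 to 38 °C, the upshift), and sampled at 0, 1, 3, 6 and 9 h. Each time of each course is 1 sample, 10 in all, so every p-value measures scatter of the samples around a fitted line and not the spread of replicate cultures. The label of 1 sample carries a mistyped temperature in its title and was placed by its description.

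Totals per column ranged from 22403625 to 48004854 exon reads and from 15313374 to 25233405 intron reads. For each sample 2 columns, named by numbered series (5 and 11 in the downshift, 2 and 13 in the upshift), were summed, and a column of series 10, which covers the downshift at 1 and 3 h alone, was not used; the median absolute log2 difference between the columns of a sample was 0.184 to 0.553 over the members. Nothing in the labels says whether these columns are separate cultures. Series 2 and 5 together, and series 11 and 13 together, each cover both courses, and the comparisons were repeated in these 2 pairs. The labels do not link the series of a pair, and the other way of pairing them was not run. The 8 fibroblast markers had mean exon levels of 32.5 to 4900 RPKM, while the epithelial, endothelial and leukocyte markers stood between 0 and 1.49 RPKM. Cirbp, the cold-induced gene of the study's title, had a difference between the shifts of 7.34 ± 0.583 on the log2 scale (standard error; adjusted p = 7.28e-05, edgeR's quasi-likelihood test), that is, higher toward 33 °C.

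Of the 51 members, 40 had an entry among the RefSeq promoters (GRCm38.p6). The 250 bases before the start site are shown for the 5 members that were called after each of the shifts and had an entry, with the most upstream start where there were several, since these are the members whose RNA moved one way in the cold and the other way in the warm. Lsm10, Lsm2, Snrpa and Prpf3 were higher at 38 °C and Prpf31 was higher at 33 °C. Capitals mark matches on either strand to any of the searched motifs: the ETS letters CCGGAAG, the CCAAT box CCAAT, the E-box CACGTG, the cAMP response element TGACGTCA, the heat shock element GAANNTTC, the NRF1 letters GCATGCGC and the YY1 letters AAGATGGC.
Lsm10: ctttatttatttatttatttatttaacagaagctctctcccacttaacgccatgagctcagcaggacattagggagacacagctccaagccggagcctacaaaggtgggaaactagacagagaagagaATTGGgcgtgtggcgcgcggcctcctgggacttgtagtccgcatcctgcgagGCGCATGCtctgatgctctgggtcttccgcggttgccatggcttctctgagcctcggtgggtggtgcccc
Lsm2: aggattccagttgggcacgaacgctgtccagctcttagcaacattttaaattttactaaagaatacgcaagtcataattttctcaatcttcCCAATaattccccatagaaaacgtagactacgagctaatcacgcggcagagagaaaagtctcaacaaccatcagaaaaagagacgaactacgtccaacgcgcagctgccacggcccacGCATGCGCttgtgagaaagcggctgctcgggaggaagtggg
Snrpa: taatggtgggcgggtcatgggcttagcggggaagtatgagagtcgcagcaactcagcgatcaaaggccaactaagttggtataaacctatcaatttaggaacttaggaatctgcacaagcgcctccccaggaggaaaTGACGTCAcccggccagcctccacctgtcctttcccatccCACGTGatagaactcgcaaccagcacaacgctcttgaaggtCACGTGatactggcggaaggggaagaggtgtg
Prpf3: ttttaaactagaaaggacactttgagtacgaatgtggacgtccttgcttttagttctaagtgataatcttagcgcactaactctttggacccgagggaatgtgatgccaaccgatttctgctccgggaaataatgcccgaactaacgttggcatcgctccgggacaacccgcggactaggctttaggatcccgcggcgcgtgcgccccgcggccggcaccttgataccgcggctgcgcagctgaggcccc
Prpf31: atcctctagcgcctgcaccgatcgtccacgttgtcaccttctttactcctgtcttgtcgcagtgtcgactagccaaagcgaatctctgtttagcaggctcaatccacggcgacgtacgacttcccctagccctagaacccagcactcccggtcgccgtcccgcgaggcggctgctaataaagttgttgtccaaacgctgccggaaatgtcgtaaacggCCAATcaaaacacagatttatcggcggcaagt

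These windows lie at chr4:126096403-126096652 (plus strand), chr17:34981604-34981853 (plus), chr7:27196272-27196521 (minus), chr3:95855886-95856135 (minus) and chr7:3629735-3629984 (plus). The ETS letters stood in 31.2% of the 48 promoters of members and in 6.91% of all 32851 promoters in the table, and the 14 members with a match, among them Prpf3, Sf3a1, Sf3a2, Snrnp27 and Snrnp200, were found on both sides of the temperature difference. The E-box stood in 10.4% against 6.02%, in promoters of Snrpa, Prpf3, Prpf40b and Prpf39, of which the first 3 were called higher at 38 °C and Prpf39 was not called. In Prpf3 the ETS letters and the E-box lie in the window of another start site, not shown, and the window shown holds none of the motifs. The cAMP response element stood in 6.25% against 1.55%, in promoters of Snrpa, Lsm2 and Snrpg, the match of Lsm2 again being in a window not shown. For the CCAAT box the shares were 41.7% and 33.8%, for the NRF1 letters 6.25% and 2.26% (Lsm10, Lsm2 and Snrnp70), and for the YY1 letters 2.08% and 1.56% (Lsm7). For the heat shock element they were 6.25% and 6.69%, with Sf3b2 and Snrpd2 the members that held it, and neither was called for the difference between the shifts. Snrpd2 was called after the upshift (0.25 ± 0.07, adjusted p = 0.0223) and Sf3b2 was not (0.03 ± 0.05, adjusted p = 0.691). The median GC content was 57.0% in the promoters of members and 52.4% in all. A match describes the letters in this window and does not show that a factor binds there.

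The members spanned a wide range of levels. Snrpb, which codes for SmB of the Sm ring, had the highest mean exon level, 140 RPKM (reads per kilobase of exon, scaled to the library size, over 10 samples), with a range of 121 to 153. Prpf8, the scaffold of the catalytic centre, followed with 85.1 (76.0 to 91.5), Snrpe with 78.5 (66.6 to 90.8) and Sf3b2 with 64.5 (60.2 to 67.8). Among the first 4 of this order, Prpf8 and Snrpe overlapped in their ranges over samples, and so did Snrpe and Sf3b2, whereas Snrpb lay above all others in every sample. The highest means of the other role groups were 40.9 for Lsm4, 37.8 for Prpf19, 21.5 for Snrnp70 and 14.4 for Snrnp25. At the low end stood Prpf40b with 3.27, Prpf39 with 2.90 and Snrnp48, a U11/U12 protein, with 1.90 RPKM. The highest sample exceeded the lowest by 1.06 times for Sf3b5, 1.109 times for Prpf6 and 1.126 times for Sf3b2, and by 2.37 times for Snrnp35, 2.20 times for Prpf40b and 1.97 times for Snrpa.

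The question of the temperature comparison is which of these genes changed their RNA level when the cells were cooled or warmed by 5 °C. Most members were not called in either course, and the 19 that were called for the difference between the courses had fitted changes of opposite sign in them. Choosing members by that difference favours opposite signs. Lsm10, Snrpa and Prpf3 led those with less RNA in the cold, and those with more included Lsm7, Lsm12 and Prpf31. The change from 0 to 9 h was fitted for each course on log2(h + 1), and the difference, downshift minus upshift, is positive for RNA that is higher toward 33 °C. The fits carry an offset per gene for the mix of columns in a sample, and the RPKM levels given here do not. For exon reads 19 of 51 members were called for this difference at an adjusted p under 0.05 (edgeR's quasi-likelihood test, Benjamini-Hochberg adjustment over all 10174 genes tested), 8 higher toward 33 °C and 11 higher toward 38 °C. That is 37.3% of members, against 46.8% of all genes tested (24.2% and 22.6% in the 2 directions). The median difference was -0.03 over members and 0.02 over all genes, and the median absolute difference was 0.22 over members and 0.42 over all genes. A difference beyond 1 on the log2 scale was found for 5 members (9.8%) and for 16.0% of all genes. Without the downshift sample at 0 h, 12 members were called (1 higher and 11 lower toward 33 °C, against 36.1% of all genes), and without the upshift sample at 0 h, 12 (5 higher and 7 lower, against 36.6%). In total RNA of a cell population, a change in the share of cells that express a gene and a change in RNA per cell cannot be told apart.

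**Figure D1:**
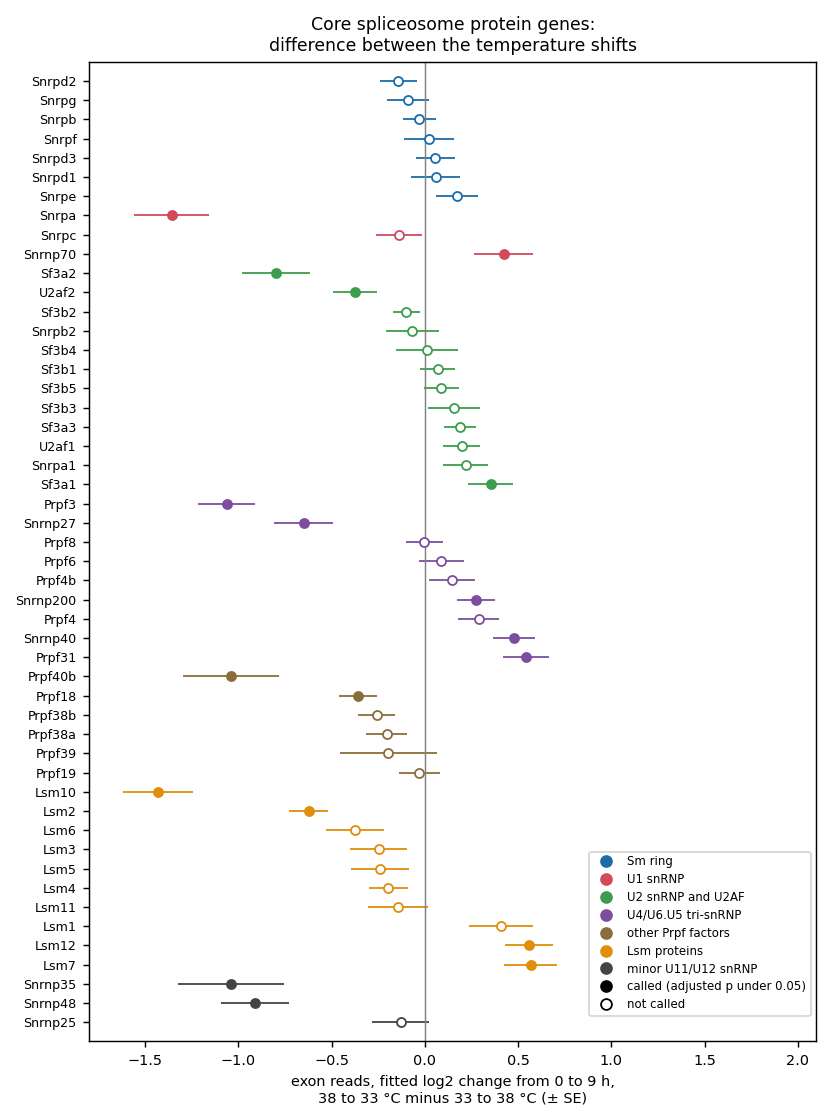
Fitted log2 difference between the shifts in exon reads for 50 of the 51 members (x axis, with SE), ordered by role and by size within a role (y axis); filled points were called at an adjusted p under 0.05. Sm ring proteins lie within -0.14 and 0.17, while the 5 members beyond -1 belong to 5 different role groups.

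Taken shift by shift, 14 members were called after the downshift (4 rose and 10 fell) and 14 after the upshift (11 rose and 3 fell), against 32.3% and 33.6% of all genes. Without the sample at 0 h of its course these counts were 5 for the downshift and 6 for the upshift, against 15.6% and 18.6% of all genes. Without that at 6 h they were 8 and 7, against 19.9% and 21%. The members' median change was 0.05 after the downshift and 0.06 after the upshift. After both shifts 6 members were called, each in opposite directions. The share of all genes called after both shifts was not computed, so whether 6 is many or few was not tested. Among these 6 members, Lsm10, Lsm2, Snrpa and Prpf3 fell in the cold and rose in the warmth, and Prpf31 did the reverse. Of the 51 members, 26 were called in no exon comparison. For 15 members the fitted change was above 0 in both courses, and of these Lsm5, Lsm4, Snrnp25, Snrpg and Snrpd2 were called after the upshift (0.45, 0.40, 0.35, 0.26 and 0.25). Lsm11, which with Lsm10 belongs to the U7 snRNP that processes histone transcripts, was called after the downshift alone at -0.39 ± 0.11 (adjusted p = 0.0257) and had -0.24 ± 0.12 after the upshift (adjusted p = 0.13).

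**Figure D2:**
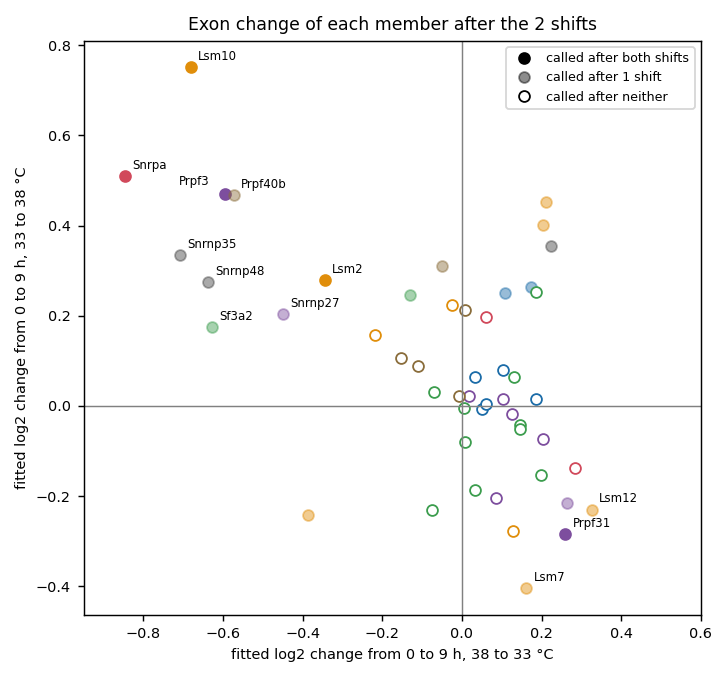
Fitted log2 change in exon reads from 0 to 9 h after the downshift (x axis) and after the upshift (y axis), 1 point for each of 50 members and coloured by role as in the plot of differences; solid, pale and open points were called after both shifts, 1 shift or neither. Snrpa (-0.85 and 0.51) and Lsm10 (-0.68 and 0.75) lie farthest into the upper left of those plotted.

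The Sm ring proteins, which form the common core of most spliceosomal snRNPs, changed little. Their differences ran from -0.14 (Snrpd2) to 0.17 (Snrpe), with standard errors of 0.09 to 0.14. None of 7 was called for the difference by edgeR's quasi-likelihood test, 0 at an unadjusted p under 0.05, and 0 by DESeq2. Snrpb read 146, 150, 153, 152 and 147 RPKM from 0 to 9 h of the downshift, and 121, 132, 132, 134 and 133 RPKM in the upshift. All 5 downshift samples of Snrpb were above all 5 upshift samples, so the courses differed from 0 h on, while its fitted changes were 0.03 ± 0.06 and 0.06 ± 0.06. Snrpd2 and Snrpg rose after the upshift (adjusted p = 0.0223 and 0.0301).

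Of the 3 U1 snRNP genes, Snrpa and Snrnp70 were called with opposite signs, and only the call of Snrpa held in all 21 alternative analyses. Snrpa (ENSMUSG00000061479, chromosome 7, 27187005 to 27196271, minus strand), which codes for the U1 protein that binds a stem-loop of the U1 RNA, read 21.5, 20.6, 18.0, 13.6 and 11.99 RPKM at 0, 1, 3, 6 and 9 h of the downshift. In the upshift it read 15.4, 16.9, 20.2, 23.6 and 20.4 RPKM. The level thus declined at each step in the cold and was highest at 6 h in the warmth. The fitted changes were -0.85 ± 0.14 (adjusted p = 0.00311) and 0.51 ± 0.14 (adjusted p = 0.0207), and the difference was -1.36 ± 0.20 (adjusted p = 0.000573). Snrnp70, which codes for the U1 70K protein, had a difference of 0.42 ± 0.16 with an adjusted p of 0.0496, which was lost in 16 of 21 alternative analyses. It had 0.36 within series 2 and 5 (adjusted p = 0.101) and 0.51 within series 11 and 13 (adjusted p = 0.119). Snrpc, the remaining U1 gene, had -0.14 ± 0.12 and was not called.

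Most of the U2 snRNP and U2AF genes did not pass the test. Of 12, Sf3a2 and U2af2 were called higher toward 38 °C and Sf3a1 higher toward 33 °C. Sf3a2 and Sf3a1 code for subunits of SF3A, a heterotrimer of the U2 particle whose remaining subunit, Sf3a3, had 0.19 ± 0.09 and was not called. Sf3a2 read 17.2, 18.0, 14.3, 11.2 and 12.2 RPKM in the downshift and 15, 15.3, 15.2, 17.8 and 17.0 RPKM in the upshift. With columns summed, its 2 lowest samples were those at 6 and 9 h of the downshift, and its difference was -0.80 ± 0.18 (adjusted p = 0.00536). These samples were also the lowest within series 2 and 5. Within series 11 and 13 they were not, as the upshift at 0, 1 and 3 h lay just below them. Sf3a2 overlaps Plekhj1 on the other strand, a gene with a mean of 1526.3 exon reads against 1466.4 for Sf3a2. Plekhj1 had a difference of 0.27 (adjusted p = 0.0696), and the sources used here do not say whether the counting used strand. Sf3a1 differed by 0.35 ± 0.12 (adjusted p = 0.0354, lost in 10 of 21 alternatives). U2af2, the large U2AF subunit that binds the polypyrimidine tract, differed by -0.38 ± 0.12 (adjusted p = 0.0232), and its small partner U2af1 had 0.20 ± 0.10 without being called. U2af2 had -0.314 within series 2 and 5 (adjusted p = 0.19) and -0.421 within series 11 and 13 (adjusted p = 0.0175). Sf3b1, which contacts the branch point, had 0.07 ± 0.09, and the 5 Sf3b genes lay between -0.10 (Sf3b2) and 0.16 (Sf3b3). Sf3b3 overlaps Cog4 on the other strand, which did differ (-0.94, adjusted p = 0.000148).

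Among the 9 tri-snRNP genes, 2 were higher toward 38 °C and 3 higher toward 33 °C. Prpf3 (ENSMUSG00000015748, chromosome 3, 95830124 to 95855885, minus strand), coding for a U4/U6 protein, read 7.89, 7.37, 6.109, 5.56 and 5.35 RPKM in the downshift and 4.79, 6.03, 6.83, 6.89 and 6.77 RPKM in the upshift. The cold course ended below every sample of the upshift but the one at 0 h. Its difference was -1.06 ± 0.15 (adjusted p = 0.000501). Snrnp27 moved the same way with -0.65 ± 0.16 (adjusted p = 0.00757). Prpf31 (ENSMUSG00000008373, chromosome 7, 3629985 to 3642486, plus strand), a U4/U6 protein as well, read 16.4, 18.4, 19.9, 20.6 and 19.4 RPKM in the cold and 17.5, 17.4, 15.1, 15.02 and 16.0 RPKM in the warmth. With columns summed, each of its downshift samples from 1 h on exceeded every upshift sample, and the difference was 0.54 ± 0.12 (adjusted p = 0.00547). Within series 2 and 5 this separation did not hold, as the downshift at 1 h lay below the upshift at 0, 1, 3 and 9 h. Within series 11 and 13 every downshift column lay above every upshift column, already at 0 h. The difference of Prpf31 was 0.60 within series 2 and 5 (adjusted p = 0.00774) and 0.47 within series 11 and 13 (adjusted p = 0.0823). Snrnp40, coding for a U5 protein, differed by 0.48 ± 0.11 (adjusted p = 0.00597). It had 0.656 within series 2 and 5 (adjusted p = 0.00463) and 0.285 within series 11 and 13 (adjusted p = 0.151). Snrnp200, the helicase that unwinds U4 from U6, differed by 0.28 ± 0.10 (adjusted p = 0.0479, lost in 14 of 21 alternatives). Prpf8 had -0.004 ± 0.10, Prpf6 0.09 ± 0.12, Prpf4b 0.15 ± 0.12 and Prpf4, the partner of Prpf3 in the U4/U6 particle, 0.29 ± 0.11 (adjusted p = 0.051).

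Of the other Prpf factors, Prpf40b and Prpf18 were called higher toward 38 °C. Prpf40b (ENSMUSG00000023007, chromosome 15, 99295087 to 99317018, plus strand), a relative of a yeast U1 protein, read 4.39, 4.98, 3.55, 3.46 and 2.67 RPKM in the downshift and 2.67, 2.27, 2.40, 3.08 and 3.24 RPKM in the upshift. It thus began higher at 38 °C than at 33 °C and ended lower in the cold course than in the warm one, and its difference was -1.04 ± 0.26 (adjusted p = 0.00799). Within series 2 and 5 alone Prpf40b had -0.77 and was not called (adjusted p = 0.0965). Prpf18, a factor of the second catalytic step, differed by -0.36 ± 0.10 (adjusted p = 0.0149). It had -0.475 within series 2 and 5 (adjusted p = 0.014) and -0.238 within series 11 and 13 (adjusted p = 0.163). Prpf19, the ubiquitin ligase of the PRP19 complex, had -0.03 ± 0.11, and Prpf38a, Prpf38b and Prpf39 lay between -0.26 and -0.20 without being called.

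**Figure D3:**
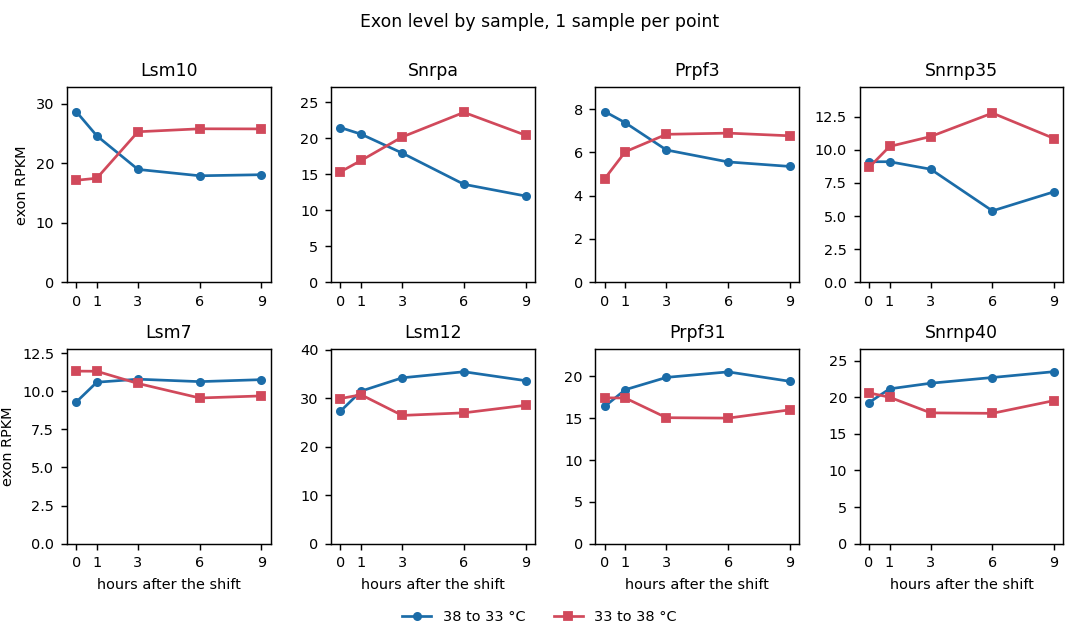
Exon RPKM (y axes, from 0) against hours after the shift (x axes) for 4 called members in each direction, with 1 point per sample; circles are the downshift and squares the upshift. In the upper row (Lsm10, Snrpa, Prpf3, Snrnp35) the cold course ends below the warm one. In the lower row (Lsm7, Lsm12, Prpf31, Snrnp40) the cold course ends above the warm one with columns summed. Within series 2 and 5 alone, Lsm7 and Lsm12 end lower in the cold course than in the warm one.

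The Lsm genes included the largest difference of all members. Lsm10 (ENSMUSG00000050188, chromosome 4, 126096623 to 126098584, plus strand) read 28.7, 24.6, 19.0, 17.9 and 18.1 RPKM in the downshift and 17.2, 17.5, 25.3, 25.8 and 25.8 RPKM in the upshift. By 3 h each course had reached the level at which the other had started or come near it, and the samples at 33 °C for at least 3 h, with those at 0 and 1 h of the upshift, all lay below the rest. The fitted changes were -0.68 ± 0.13 (adjusted p = 0.00526) and 0.75 ± 0.14 (adjusted p = 0.0031), and the difference was -1.43 ± 0.19 (adjusted p = 0.000338). Of the U6 ring, Lsm2 differed by -0.62 ± 0.11 (adjusted p = 0.00116) and Lsm7 by 0.57 ± 0.14 (adjusted p = 0.00914). With all columns, 2 subunits of 1 ring thus stood on opposite sides. Lsm7 had 0.73 within series 2 and 5 (adjusted p = 0.0211). Within series 11 and 13 it had 0.41 and was not called (adjusted p = 0.143). Lsm7 read 9.29, 10.6, 10.8, 10.6 and 10.8 RPKM in the downshift and 11.3, 11.3, 10.5, 9.56 and 9.69 RPKM in the upshift. Lsm3, Lsm4, Lsm5 and Lsm6 of the same ring had -0.25, -0.20, -0.24 and -0.38 and were not called. Lsm1, which takes part in mRNA decapping in the cytoplasm, had 0.41 ± 0.17 (adjusted p = 0.0759). Lsm12, an Lsm-domain protein outside these rings, read 27.3, 31.5, 34.2, 35.4 and 33.6 RPKM in the downshift. In the upshift it read 29.9, 30.7, 26.4, 27.0 and 28.5 RPKM. Its difference was 0.56 ± 0.13 (adjusted p = 0.00602). With columns summed, Lsm7 and Lsm12 thus ended higher in the downshift than in the upshift. Within series 2 and 5 both ended just lower in the downshift. Within series 11 and 13 every downshift column of both genes lay above every upshift column, already at 0 h.

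For the minor spliceosome, Snrnp35 and Snrnp48 were called and Snrnp25 was not. Snrnp35 read 9.10, 9.10, 8.53, 5.39 and 6.83 RPKM in the downshift and 8.66, 10.3, 11, 12.8 and 10.9 RPKM in the upshift. With columns summed, the courses began at a like level and did not overlap from 1 h on, and the difference was -1.04 ± 0.29 (adjusted p = 0.0135). Within series 11 and 13 they did overlap, as the downshift at 1 h lay just above the upshift at 9 h. The upshift level at 9 h was above that at 0 h in series 2 but not in series 13. The difference of Snrnp35 was -1.15 within series 2 and 5 (adjusted p = 0.027) and -0.98 within series 11 and 13 (adjusted p = 0.0122). Snrnp48 read 2.29, 1.85, 1.55, 1.55 and 1.499 RPKM in the cold and 1.73, 1.94, 2.31, 2.08 and 2.18 RPKM in the warmth, with a difference of -0.91 ± 0.18 (adjusted p = 0.00298). Snrnp25 had -0.13 ± 0.15. Of 4 further U11/U12 genes, Pdcd7 (-0.95 ± 0.21, adjusted p = 0.0047) and Zmat5 (-0.77 ± 0.18, adjusted p = 0.00657) were called higher toward 38 °C. Rnpc3 (-0.22 ± 0.14, adjusted p = 0.209) and Zcrb1 (0.075 ± 0.12, adjusted p = 0.635) were not called.

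The comparison was repeated within each of the 2 pairs of column series. Within series 2 and 5, 18 members were called for the difference (8 up and 10 down, against 38.1% of all genes), and within series 11 and 13, 14 were (2 up and 12 down, against 37.9%). Of the 19 members called with all columns, 10 were called in both pairs. Each of the 19 had the same sign in both, but they were chosen on the sum of these same columns, so this is a description and not a separate check. Lsm10 had -1.63 and -1.32, Snrpa -1.51 and -1.22, and Prpf3 -1.06 and -1.09. The sign differed between the pairs for 17 members, none of which was called with all columns. Among these 17, Lsm4 (-0.53 and 0.09) and Prpf4 (0.53 and -0.08) were called within series 2 and 5 alone, and Lsm11 (0.10 and -0.51) and Prpf19 (0.22 and -0.35) within series 11 and 13 alone. Lsm5 (-0.43 and 0.07), Snrpc (-0.35 and 0.06), Sf3b3 (0.36 and -0.10), Snrnp25 (-0.49 and 0.03) and Prpf39 (-0.43 and 0.17) differed in sign without a call in either pair, as did Snrpb, Snrpd1, Snrpg, Sf3b1, Sf3b4, Sf3b5, Snrpb2 and Prpf8, whose values lay between -0.16 and 0.24. After the upshift 14 members were called within series 2 and 5 (11 rose and 3 fell, against 29.6% of all genes called) and 6 within series 11 and 13 (2 rose and 4 fell, against 22.6%). With a sample at 0 h left out, some calls were lost. Without the downshift sample these were Lsm12 (0.40), Lsm7 (0.39), Prpf31 (0.40), Snrnp40 (0.41), Prpf18 (-0.36), Sf3a1 (0.38), Snrnp200 (0.37) and Snrnp70 (0.48), with adjusted p-values of 0.0564 to 0.113. Without the upshift sample they were Snrnp35 (-0.88), Snrnp27 (-0.48), U2af2 (-0.39), Prpf18 (-0.28), Snrnp40 (0.40), Sf3a1 (0.26), Snrnp200 (0.20) and Snrnp70 (0.29), with adjusted p-values of 0.0568 to 0.279. U2af2 was not called without the downshift sample at 9 h either (-0.25, adjusted p = 0.0983).

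**Figure D4:**
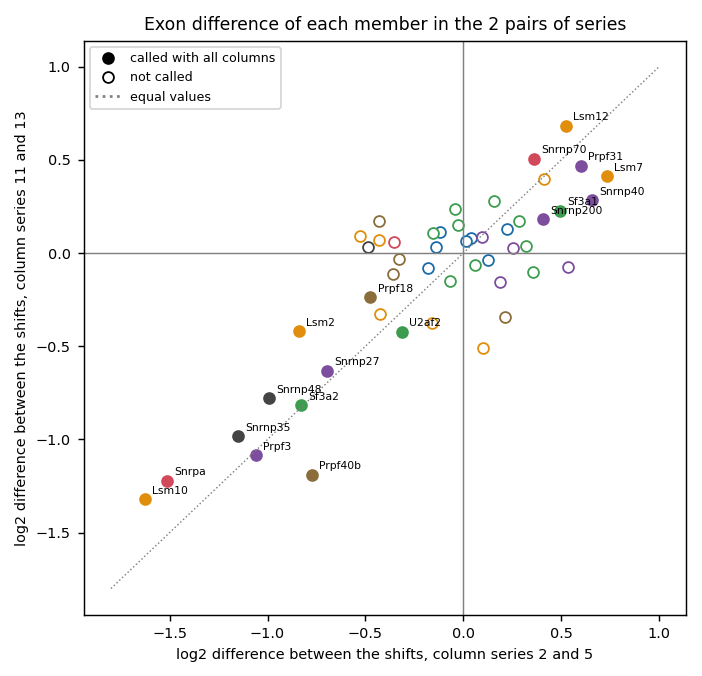
Fitted log2 difference between the shifts in exon reads within column series 2 and 5 (x axis) and within series 11 and 13 (y axis), 1 point for each of 50 members and coloured by role as in the plot of differences; filled points were called with all columns and the dotted line marks equal values. All 18 filled points lie in the lower left or upper right, and 17 open points lie in the other quadrants.

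At 0 h, after 16 h at either temperature, each temperature had 1 sample, and the values are given without a test. The 33 °C sample holds column series 2 and 13 alone, and the 38 °C sample series 5 and 11 alone. Temperature and column series therefore cannot be told apart at 0 h. Past a fold of 1.5 there were 3 members lower at 33 °C than at 38 °C, Lsm10 (-0.74 on the log2 scale of RPKM with a pseudocount of 0.1), Prpf3 (-0.71) and Prpf40b (-0.70), and 0 higher, against 8.88% of all genes lower and 11.2% higher. The members' median was -0.18 and that of all genes 0, and 11 of 51 members were higher at 33 °C. This lower median was seen within series 11 and 13 (-0.33) and not within series 2 and 5 (-0.02). At 1 h after either shift 0 members were past a fold of 1.5, against 0.531% of all genes higher and 0.619% lower after the downshift and 1.15% and 0.983% after the upshift. The first-hour changes ran from -0.29 (Snrnp48) to 0.20 (Lsm12) in the cold and from -0.23 (Prpf40b) to 0.39 (Prpf39) in the warmth. Lsm12 at 1 h of the downshift had thus covered part of the rise that it showed at 6 h.

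Intron reads stand for precursor RNA that still holds introns, and 50 members had enough of them to test, Sf3b5 having no intron. The difference between the shifts was called for 10 of 50 members (20%), each lower toward 33 °C, against 18.4% of all genes (1.57% higher and 16.8% lower). With the courses paired by time point (the time point as a block) edgeR called 0 of the 50, with 11 at an unadjusted p under 0.05 and 5 called by DESeq2, against 1.26% of all genes in edgeR. The median was -0.39 over members and -0.29 over all genes, so on the scale of the exon reads the intron reads of most genes were lower toward 33 °C. With intron reads scaled by their own total (TMM of the intron counts) the medians were -0.14 and -0.03. On that scale edgeR called 0 members (10 at an unadjusted p under 0.05, and 4 called by DESeq2), against 7.49% of all genes in edgeR. Prpf40b (-0.97 ± 0.21), Lsm2 (-0.88 ± 0.25), Snrpa (-0.87 ± 0.20) and Prpf3 (-0.78 ± 0.16) had the largest intron differences among those called (adjusted p = 0.0145, 0.0359, 0.017 and 0.0105). All 4 were called in exon reads with the same sign. Without the upshift sample at 0 h 3 members were called in introns, against 9.2% of all genes. The calls of Lsm2 (-0.71, adjusted p = 0.179), Snrpa (-0.75, adjusted p = 0.0865) and Prpf3 (-0.63, adjusted p = 0.0638) were among those lost. Without the upshift sample at 6 h 3 were called, without that at 9 h 6 were, and without the downshift sample at 6 h 5 were. The shares of all genes in these fits were 7.81%, 11.5% and 8.34%. Snrpa read 3.74, 3.90, 3.31, 2.67 and 2.63 intron RPKM in the downshift and 2.55, 2.90, 3.129, 3.28 and 3.07 in the upshift, so at 6 and 9 h the warm samples lay above the cold ones, as in its exon reads. Lsm6, Snrpe and Lsm3 were called in introns (-0.77, -0.73 and -0.69) and not in exons. Lsm12 and Snrnp40 were lower in introns (-0.66 and -0.51) and higher in exons toward 33 °C. After the downshift alone 2 members were called in introns, Snrpa and Lsm12, and both fell (3.97% of all genes were called, 3.45% falling). After the upshift alone Prpf40b was called and rose (5.52% of all genes, 4.89% rising and 0.631% falling). For the difference, within series 2 and 5 there were 4 members called in introns (against 14.1% of all genes) and within series 11 and 13 there was 1 (against 3.75%).

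The ratio of exon to intron reads compares mature with precursor RNA of the same gene. It was called for 7 of 50 members (14.0%), each higher toward 33 °C, against 17.3% of all genes (15.4% higher and 1.89% lower). With the time point as a block 3 were called, against 6.47% of all genes. The median was 0.28 over members and 0.28 over all genes. Lsm12 had the largest difference in this ratio: it read 6.70, 7.57, 9.03, 11.3 and 10.8 exon RPKM per intron RPKM in the downshift and 10.9, 10.99, 9.08, 8.46 and 8.95 in the upshift. The 2 courses met at 3 h, and at 6 and 9 h the cold samples lay above the warm ones. The difference was 1.22 ± 0.19 (adjusted p = 0.000813), with 1.19 and 1.35 within the 2 pairs of series (adjusted p = 0.0235 and 0.0058). Snrnp40 read 7.55, 8.70, 9.10, 10.6 and 11.5 in the downshift and 10.7, 10.4, 9.15, 8.33 and 8.62 in the upshift, with a difference of 0.98 ± 0.17 (adjusted p = 0.00142). Within series 2 and 5 Snrnp40 had 1.08 (adjusted p = 0.0136) and within series 11 and 13 it had 0.87 (adjusted p = 0.0554). Snrpe, an Sm ring gene with little exon difference, went from 15.8 to 23.0 in the cold and from 20.8 to 16.9 in the warmth, with 0.90 ± 0.21 (adjusted p = 0.00868). Snrnp70 had 0.82 ± 0.23 (adjusted p = 0.0225), and its exon level was only 1.67 to 2.36 times its intron level over the samples. Sf3a1 (0.76) and Snrnp200 (0.72) were called as well (adjusted p = 0.0154 and 0.0155). Both and Snrnp70 were not called without the downshift sample at 6 h, without that at 9 h or without the upshift sample at 0 h (adjusted p of 0.0516 to 0.113).

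**Figure D5:**
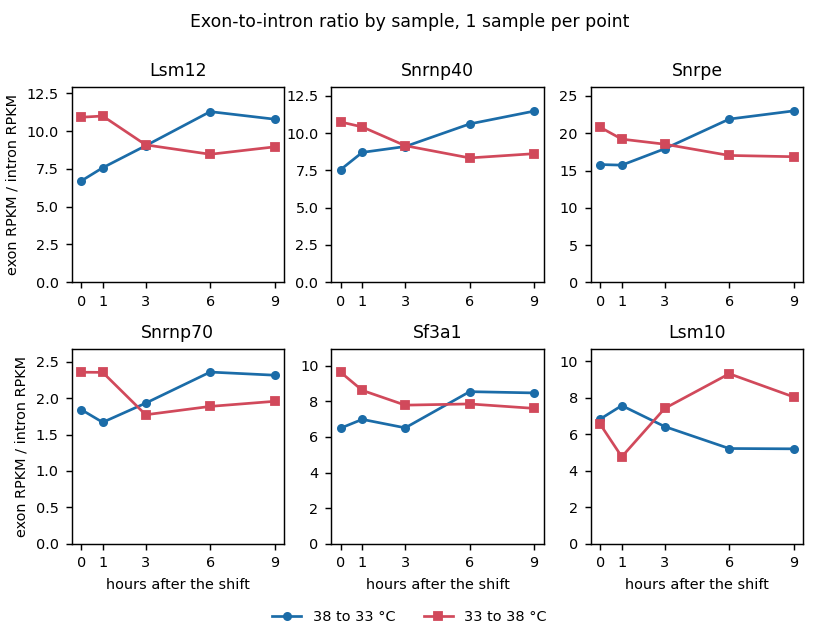
Exon RPKM over intron RPKM (y axes, from 0) against hours after the shift (x axes) for 5 of the 7 members called for the ratio and for Lsm10, with 1 point per sample; circles are the downshift and squares the upshift. For Lsm12 the cold course goes from 6.70 to 10.8 and the warm course from 10.9 to 8.95, and Lsm10 has the opposite order at 6 and 9 h.

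Lsm10 had the lowest ratio difference of the members, -1.101 ± 0.40, and was not called (adjusted p = 0.067). On the intron reads' own scale the members called for the ratio were Lsm12 (0.97 ± 0.19, adjusted p = 0.00541), Snrnp40 (0.73 ± 0.17, adjusted p = 0.0155) and, lower toward 33 °C, Lsm10 (-1.36 ± 0.40, adjusted p = 0.0446), 2 up and 1 down in place of 7 and 0. The medians were then 0.03 over members and 0.03 over all genes, and 8.59% of all genes were called. After the downshift alone 4 members were called for the ratio, Lsm12 (0.78), Snrpe (0.59), Snrnp40 (0.57) and Lsm4 (0.56), each rising, against 3.07% of all genes (2.74% rising and 0.332% falling). After the upshift alone edgeR called 0 members (6 at an unadjusted p under 0.05, and 2 called by DESeq2), against 4.68% of all genes (4.46% falling and 0.225% rising). In level, exon reads exceeded intron reads by a median of 6.69 times over members and 6.83 times over all genes. For 3 members (6.0%, against 2.27% of all genes) the exon level lay below the intron level: Snrnp48 (0.505), Prpf39 (0.587) and Prpf38b (0.622). The annotation holds a transcript with a retained intron for 37 of the members and one marked for nonsense-mediated decay for 18. The exon lengths used here join the exons of all transcripts, and no source used here says how reads in retained introns were counted.

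Of 88 further spliceosome genes in a list of other factors, 84 were tested, and 35 of them, 9 higher toward 33 °C and 26 higher toward 38 °C, were called for the exon difference (41.7%, against 46.8% of all genes, and a median of -0.15). Among those higher toward 33 °C were Cwc27 (1.102 ± 0.22), a cyclophilin-type protein of the PRP19-related group, U2surp (1.00 ± 0.27), a U2-associated protein, and Cwc22 (0.93 ± 0.25), which recruits Eif4a3 to the spliceosome. Ddx46, the helicase acting with SF3B (0.93 ± 0.14), and Eif4a3 (0.82 ± 0.12), of the exon junction complex, moved the same way. Among those higher toward 38 °C were Gemin6 (-1.11 ± 0.28), of the SMN complex that loads the Sm ring, Pdcd7, Ncbp2 (-0.94 ± 0.11), the small cap-binding subunit, Ddx41 (-0.87 ± 0.14) and Txnl4a (-0.84 ± 0.15), a U5 protein. Adjusted p-values of these 10 genes ran from 0.00022 for Ncbp2 to 0.0122 for Cwc22 (edgeR's quasi-likelihood test).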

How the data were processed

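Paired-end libraries that keep strand were made from total RNA of 10 samples, per the labels' protocols. STAR, bedtools and mm10 are named, with no version, per the submitters' processing notes. No source used here gives the annotation, or how shared reads and strand were treated in the counting. The values are estimated counts of reads for each gene's exons and introns, as the authors deposited them, although the tables are named for RPKM: column totals differ, and of the exon values above 0 a share of 22.9% is whole to within 1e-06. They were rounded before testing. RPKM was computed here with the lengths of GENCODE M21, which held 36308 of 38087 identifiers (95.3%), and TMM-scaled exon library sizes. None of the 22 exon columns lacked a sample, and a further series 10 of the downshift was not used.

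Columns of a sample were summed, with an offset per gene for their mix in the fits. The RPKM levels, their exon-to-intron ratios and the comparisons at 0 and 1 h do not carry this offset. A course of levels can therefore differ from the fitted change. In edgeR 4.0.16 (R 4.3.3) each course had its own intercept and its own slope on log2(h + 1) in a negative binomial model, tested by quasi-likelihood, with Benjamini-Hochberg adjustment over all genes and calls at 0.05. A standard error is the fitted change, without sign, divided by the root of the F statistic. The tests covered 10174 genes at or above a mean exon RPKM of 1, all 51 members among them, and, where introns enter, the 9351 genes (50 members) whose mean intron RPKM was also 0.05 or more. For the ratio, slopes of exon and intron reads were contrasted on the exon scale. The exon and intron counts of a sample entered as separate observations with no term for the sample, so their pairing was not used. Scripts were tested on simulated data. Alternatives were DESeq2 1.42.0, limma 3.58.1 on log2 RPKM (pseudocount 0.1), other size factors and filters, single series pairs, other forms of time, the intron reads' own scale and each sample left out.

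The members, gene lists and comparisons were chosen with earlier results of these data known. Values were given in full for up to 8 called members per direction of the exon difference, up to 4 for introns and ratios, up to 3 per shift, the highest member of each role, members with opposite signs in the series pairs, and up to 5 other spliceosome genes per direction. Scatter between columns of 1 sample exceeded the error of counting, with a chi-square per degree of freedom of 98.9 to 354. The values of 1 member are not reported here, although the counts include it.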

Additional observations from a re-analysis of the deposited data

How the results depend on the processing

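Called for the exon difference between the shifts were 19 members, 12 to 20 with each sample left out (12 without the downshift sample at 0 h and 12 without the upshift sample at 0 h) and 10 with a step of 0 h against 3, 6 and 9 h. After the downshift there were 14, 5 to 15 with a sample left out (5 without 0 h and 8 without 6 h of the downshift), 9 with linear hours and 4 with the step. After the upshift there were 14, 6 to 15 with a sample left out (6 without 0 h and 7 without 6 h of the upshift), 6 in series 11 and 13 and 2 with the step. With the step 24.7% of all genes were called for the exon difference, 3.48% after the downshift and 6.19% after the upshift. For introns there were 10, 3 to 10 with a sample left out (3 without 0 h or 6 h of the upshift), 4 in series 2 and 5 and 1 in series 11 and 13. Of all genes 18.4% were called in introns, 7.81% to 23% with a sample left out, 14.1% in series 2 and 5 and 3.75% in series 11 and 13. With TMM of the intron counts edgeR called 0 (10 at an unadjusted p under 0.05, 4 by DESeq2), and with the time point as a block 0 (11 at an unadjusted p under 0.05, 5 by DESeq2). For the ratio there were 7, 3 to 8 with a sample left out (3 without 6 h or 9 h of the downshift, 4 without 0 h of the upshift), 13 by DESeq2, 4 in series 2 and 5, 1 in series 11 and 13, 2 with the step, 3 with the time point as a block and 3 with TMM of the intron counts. Of all genes 17.3% were called for the ratio, 8.58% to 17.3% with a sample left out and 21.8% by DESeq2. The share was 6.08% in series 2 and 5, 3.96% in series 11 and 13, 8.61% with the step, 6.47% with the block and 8.59% with TMM of the intron counts. At 0 h there were 3 members past 1.5-fold, 0 past a fold of 2, 6 in series 11 and 13 and 5 in series 2 and 5, and at 1 h of the upshift 1 in series 2 and 5 and 0 otherwise. The causes were not tested.

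Lsm10, Lsm2, Prpf3, Snrnp48 and Snrpa were called for the exon difference in all 21 alternatives, and no called member changed sign. Not-called members with a value near 0 did: Lsm4 (-0.20) had 0.092, Snrnp25 (-0.13) had 0.032 and Snrpb (-0.03) had 0.115 in series 11 and 13. In series 2 and 5 Prpf19 (-0.03) had 0.215 and Prpf8 (-0.004) had 0.189. With the step Prpf19 had 0.066 and Prpf8 0.033, and without the filter Prpf8 had 0.024. With each sample left out Prpf19 ranged from -0.154 to 0.078, Prpf8 from -0.115 to 0.058 and Snrpb from -0.091 to 0.054. Pairing the courses by time point gave 17 members for the exon difference.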
